A study of Schizophyllum commune with 14 samples.

Results

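Fruiting in the split gill mushroom Schizophyllum commune starts when hyphae of a vegetative dikaryon aggregate and form primordia. The comparison of stage 1 primordium with vegetative mycelium covers that first step. It sets against each other 6 of the 14 RNA libraries of the series, chosen by their stage labels, with 3 biological replicates of each stage. Both stages were dikaryons made from the H4-8a and H4-8b monokaryons of strain H4-8 and grown on minimal medium from a 5 mm agar plug. Plates spent 5 days at 30 °C in darkness and 10 days at 25 °C with 12 hours of light a day. Stage 1 primordia were fruiting body initials of up to 2 mm. The labels give no separate age or place of harvest for the mycelium and do not say whether hyphae were removed from the primordia.

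A dikaryon carries a nucleus of each mating partner in every cell, and its mating type genes code for pheromones, their receptors and homeodomain proteins. Blue light sensed through the white collar complex is needed for fruiting in this species, and a set of zinc finger and other transcription factors acts at successive steps. Hydrophobins, small secreted proteins with conserved cysteines, coat aerial hyphae and line air channels in the fruiting body, so that different members are used in different structures.

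Transcripts were counted as unique gene reads, that is, reads with a single placement, for 16319 transcript models. Unique reads numbered 17638722 to 20148678 per mycelium library and 18469347 to 19176833 per primordium library. Of the models 14302 passed the filter on low counts and were tested with edgeR's quasi-likelihood test. The fit took in all 14 libraries of the series, so the spread behind each SE, interval and call also comes from the 8 libraries of later stages. Calls needed a p-value below 0.05 after Benjamini-Hochberg adjustment over all tested transcripts. Levels are CPM, unique reads relative to the library total after TMM scaling (a factor per library that corrects for a few abundant transcripts). Ranks of different genes by level use RPKM, CPM per kilobase of transcript. Abundance classes and cut-offs use CPM, and shares of a library use reads, both without regard to transcript length. Changes are log2 differences, primordium minus mycelium, with a standard error (SE). The biological coefficient of variation was 0.092 among the mycelium libraries and 0.286 among the primordium libraries. All mycelium libraries were read on a different flow cell from all primordium libraries, so a difference of stage cannot be told apart from one of flow cell in any result given here. In tissue pieces, a change in the number of cells of a type cannot be told apart from a change in RNA per cell.

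The start of fruiting came with changes in 44% of the tested transcripts, with higher calls in 22.5% and lower calls in 21.4%. With no scaling factor 32.1% of calls were higher, in place of 51.3%, and 1929 transcripts were called higher in place of 3222. Voom called 9702 transcripts, over 1.5 times as many. A fit of the 2 stages alone called 8961 of 13757 tested. Most of the 6286 calls were moderate: 1620 were under 2-fold and 4309 under 4-fold. Among calls beyond a log2 change of 6 there were 125 rises and 26 falls, and between 4 and 6 there were 191 rises and 108 falls, whereas between 2 and 4 there were 727 rises and 800 falls. From a mean below 1 CPM in mycelium, 52 transcripts rose to at least 20 CPM in primordium, and 8 fell the opposite way. For 3977 of the 8016 transcripts that were not called, the 95% interval of the log2 change lay within 1 of 0, so that it left out a change of 2-fold or more. For the other 4039 the interval reached further.

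Calls at least 4-fold higher made up 7.29% of tested transcripts and calls at least 4-fold lower 6.53%. Which direction held more of them depended on the scaling and on a library: with no scaling factor there were 857 rises and 1332 falls, and without primordium replicate 3 there were 983 and 1010. Of the 1043 rises, 1017 had all 3 primordium libraries above all 3 mycelium libraries, and in 664 the lowest primordium library was at least 4 times the highest mycelium library. All 934 falls were separated in this way, 506 of them by at least 4 times. Without regard to calls, all primordium libraries lay above all mycelium libraries in 36.0% of tested transcripts and below in 35.2%, or 71.2% together. The rises were less even between replicates than the falls. Their median coefficient of variation among primordium libraries was 27.1%, with 16.4% over all tested transcripts, and that of the falls among mycelium libraries was 11.1%, with 8.82% over all. In 43 of them a single primordium library held over 75% of the summed level of its stage, 31 times replicate 3 and 12 times replicate 2, and no fall had over 75% of its mycelium level in a single library. Of the 1426 transcripts with a mean below 1 CPM over the 6 libraries, 5.33% were called at least 4-fold higher. Of the 76 with a mean of 1000 CPM or more, 27.6% were. The share at least 4-fold lower was 9.26% and 9.21% in those same classes. This mean includes the primordium libraries, so a large rise itself moves a transcript into a higher class. The growth of the share of rises with abundance is therefore partly built in. Rare transcripts had wider intervals, with a median half-width of 1.13 on the log2 scale below 1 CPM against 0.57 between 10 and 100 CPM.

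**Figure D1:**
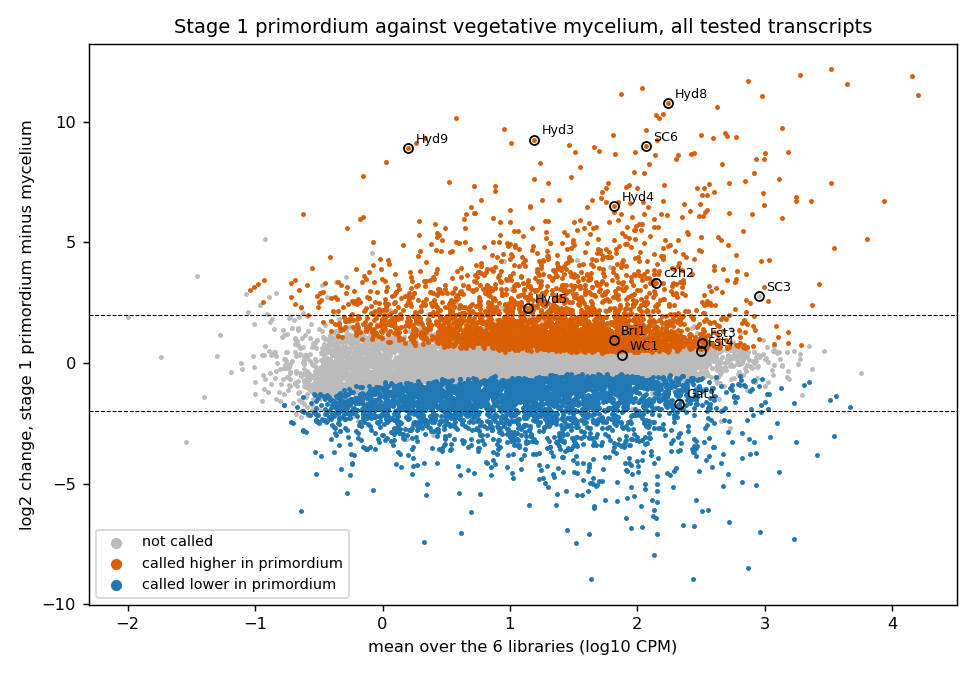
Log2 change (primordium minus mycelium) of all tested transcripts against their mean level over the 6 libraries on a log10 CPM axis, with called rises in orange, called falls in blue, dashed lines at 4-fold and the hydrophobins and regulators circled. The 125 rises beyond a log2 change of 6 outnumber the 26 falls of that size, and most circled hydrophobins lie among the rises.

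The strongly raised transcripts made up a large part of the primordium reads. The 1043 transcripts at least 4-fold higher took 26.0%, 24.5% and 33.6% of the unique reads of primordium replicates 1 to 3, against 1.76%, 1.5% and 1.54% in mycelium replicates 1 to 3. The 934 transcripts at least 4-fold lower took 13.8%, 13.6% and 13.7% of the mycelium libraries and 1.33%, 0.915% and 1.19% of the primordium libraries. The groups do not overlap in either share. Primordium replicate 3 had the highest share of raised transcripts and replicate 1 the highest share of lowered ones among the primordium libraries. These shares follow from how the transcripts were called and are a description. The 10 most abundant transcripts of each library held 5.35% to 5.87% of the mycelium reads and 8.99% to 16.1% of the primordium reads. Transcripts that were not called took 53.1% to 53.5% of the mycelium libraries and 41.7% to 46.9% of the primordium libraries.

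**Figure D2:**
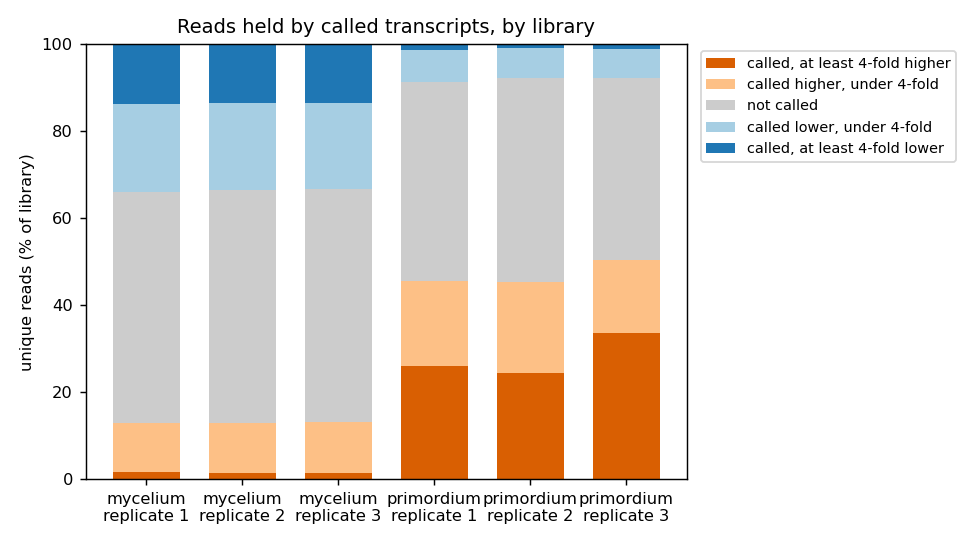
Share of unique reads (percent of the library) held by transcripts called in each direction and size class, as stacked bars for the 3 mycelium and 3 primordium libraries. Transcripts at least 4-fold higher hold under 2% of each mycelium library and 24.5% to 33.6% of the primordium libraries.

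Mycelium replicate 1 stood apart in its level of transcripts that are abundant in primordium. Among the 45 transcripts at least 4-fold higher with a primordium mean of 1000 CPM or more, replicate 1 was the highest mycelium library in 38, or 84.4%, while over all tested transcripts it was the highest in 34.3%. In 15 of the 45 it was at least 2 times the mean of the other 2 mycelium libraries, against 0.965% of all tested transcripts. Across the 45 transcripts the level in replicate 1 ran from 0.0389% (SCHCODRAFT_02624825) to 26.3% (SCHCODRAFT_02620687) of the primordium mean. For SCHCODRAFT_02372730, SCHCODRAFT_02628901, model 2610781 and SCHCODRAFT_02627923 it was 0.0777%, 0.0936%, 0.0899% and 0.0721%. For SCHCODRAFT_02612041 and SCHCODRAFT_02605614 it was 0.122% and 0.271%. These shares are of the whole level in replicate 1, which includes what the other mycelium libraries also held. SCHCODRAFT_02620687 was at 13.5% and 16.5% of the primordium mean in replicates 2 and 3. For transcripts at least 4-fold lower, replicate 1 was the highest in 31.0%. The origin of these reads was not tested. Without replicate 1 the counts of calls at least 4-fold apart were 1012 higher and 922 lower.

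**Figure D3:**
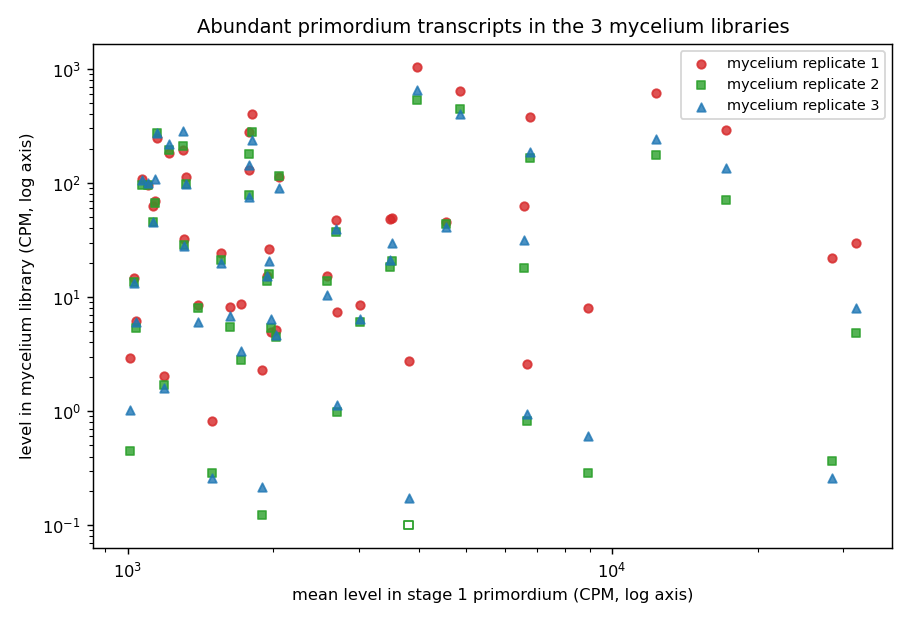
Level of the 45 transcripts at least 4-fold higher with a primordium mean of at least 1000 CPM in each mycelium library (vertical, CPM) against their primordium mean (horizontal, CPM), both on log axes, with the open symbol marking 0 reads. Replicate 1 (red) lies above both others for 38 of the 45 transcripts.

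The reference pairs models with locus tags and a few symbols and gives no product names, so most of the largest rises are known here by locus tag alone. The most abundant of them, SCHCODRAFT_02372730, was at 22.2, 0.368 and 0.258 CPM in mycelium replicates 1 to 3 and at 27800, 26100 and 31700 CPM in the primordium replicates. It had the highest RPKM of all tested transcripts in primordium, 56200, and rank 6384 in mycelium, at 14.9. Its log2 change was 11.88 (SE 1.97, adjusted p = 0.000432), and 16.44 without mycelium replicate 1. The primordium libraries were close together, and mycelium replicate 1 lay far above the others of its stage.

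SCHCODRAFT_02628901 held rank 2 by RPKM in primordium, at 29300, 18700 and 47500 CPM, against 29.8, 4.83 and 7.99 CPM in mycelium (log2 change 11.13, SE 1.27, adjusted p = 1.54e-05, and 12.28 without mycelium replicate 1). Model 2610781 held rank 3, at 8510, 8080 and 10100 CPM against 7.99, 0.286 and 0.601 CPM (11.56, SE 1.38, adjusted p = 3.03e-05, and 14.27 without that library). In RPKM these were at 28100 and 14100 in primordium and 12.5 and 4.70 in mycelium. The 3 highest RPKM values of the primordium thus belonged to transcripts ranked 6384, 6961 and 9672 in mycelium.

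The transcripts at ranks 4 and 5 by RPKM were already abundant in mycelium. SCHCODRAFT_02625787 was at 290, 70.5 and 134 CPM in mycelium and at 13400, 8490 and 29800 CPM in primordium. Its log2 change was 6.71 (SE 0.79, adjusted p = 1.92e-05), and it was 7.40 without mycelium replicate 1 and 6.04 without primordium replicate 3. SCHCODRAFT_02634178 was at 612, 176 and 244 CPM in mycelium and at 10900, 5800 and 20200 CPM in primordium (5.16, SE 0.63, adjusted p = 2.55e-05, and 5.87 without mycelium replicate 1). Both were highest in primordium replicate 3 and lowest in replicate 2.

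The other large rises started near 0. SCHCODRAFT_02624825 was at 2.60, 0.818 and 0.945 CPM in mycelium and at 11000, 5670 and 3340 CPM in primordium. SCHCODRAFT_02627923 was at 2.74, 0.00 and 0.172 CPM in mycelium and at 4740, 2480 and 4190 CPM in primordium. SCHCODRAFT_02612041 was at 2.31, 0.123 and 0.215 CPM in mycelium and at 1700, 1790 and 2190 CPM in primordium. Their log2 changes were 12.17, 11.95 and 11.08 (SE 2.56, 2.26 and 1.29; adjusted p = 0.00235, 0.00114 and 2.69e-05), and 12.88, 15.35 and 13.40 without mycelium replicate 1. Without mycelium replicate 2 that of SCHCODRAFT_02627923 was 11.35. The sizes of these rises are therefore uncertain. All alternatives kept their direction, but these transcripts were chosen for groups that do not overlap, so this adds no support for it.

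Model 2629707 was at 0.819, 0.286 and 0.258 CPM in mycelium and at 552, 1110 and 2820 CPM in primordium. Model 2704222 was at 0.193, 0.0409 and 0.00 CPM and at 95.2, 76.9 and 480 CPM. Both were highest in primordium replicate 3, without which their log2 changes were 10.82 and 10.05 in place of 11.68 (SE 1.13, adjusted p = 4.32e-06) and 11.40 (SE 1.13, adjusted p = 8.68e-06); without mycelium replicate 1 they were 12.39 and 12.94. SCHCODRAFT_02507210, with 4 reads in all of mycelium, was even in primordium, at 128, 135 and 185 CPM (11.17, SE 1.02, adjusted p = 4.52e-06, and 12.30 without mycelium replicate 2). The reference spans of SCHCODRAFT_02624825, SCHCODRAFT_02627923 and SCHCODRAFT_02507210 overlap a neighbouring gene. The kit does not keep the strand, so reads of overlapping genes cannot be told apart.

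Several of the largest falls were of transcripts that mycelium held at a high and even level. SCHCODRAFT_02643740 was at 1320, 1700 and 1440 CPM in mycelium and at 3.55, 3.08 and 5.76 CPM in primordium (log2 change -8.49, SE 0.66, adjusted p = 8.05e-07). SCHCODRAFT_02594195 was at 553, 533 and 564 CPM and at 2.08, 0.615 and 0.667 CPM (-8.93, SE 0.51, adjusted p = 7.99e-08, and -9.74 without primordium replicate 1). SCHCODRAFT_02607041 was at 2110, 1750 and 1610 CPM and at 21.4, 11 and 10.4 CPM (-7.00, SE 0.46, adjusted p = 1.58e-07). In each the lowest mycelium library lay far above the highest primordium library. The span of SCHCODRAFT_02643740 overlaps a neighbouring gene, as do those of the falls SCHCODRAFT_02640999, SCHCODRAFT_0234329 and SCHCODRAFT_02606953 described next.

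The 10 largest falls were taken among transcripts with a mean of at least 20 CPM in mycelium. SCHCODRAFT_02633361, the largest of them, was at 138, 37.6 and 82.4 CPM in mycelium and at 0.219, 0.103 and 0.182 CPM in primordium (-8.96, SE 0.56, adjusted p = 2.19e-07). SCHCODRAFT_02627652 fell from 267 ± 42.3 to 1.09 ± 0.468 CPM (SD, n = 3 each; -7.94, SE 1.42, adjusted p = 0.000774 by edgeR). SCHCODRAFT_02527746 was at 69.3, 65.6 and 62.0 CPM and at 0.0546, 0.615 and 0.425 CPM (-7.46, SE 0.51, adjusted p = 2.19e-07, and -8.10 without primordium replicate 2). SCHCODRAFT_02641506, SCHCODRAFT_02641616 and SCHCODRAFT_0234329 fell by 7.10, 7.09 and 6.91 on the log2 scale (SE 0.68, 0.81 and 0.43; adjusted p = 4.99e-06, 2.79e-05 and 1.15e-07). These 10 falls thus ran from -8.96 to -6.91 on the log2 scale. The 10 largest rises, taken at a mean of 20 CPM or more in primordium, ran from 10.77 to 12.17. Rarer transcripts are left out of both lists, such as SCHCODRAFT_01158670, which fell by 7.41 from a mean of 4.25 CPM.

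The called falls with the highest RPKM in mycelium were mostly moderate. SCHCODRAFT_02744056, at rank 3 in mycelium by RPKM, was at 4840, 4770 and 5000 CPM and fell to 1640, 1490 and 1910 CPM (-1.53, SE 0.37, adjusted p = 0.00464). SCHCODRAFT_02603309 fell from 1420, 1130 and 1180 CPM to 101, 47.3 and 95.7 CPM (-3.94, SE 0.57, adjusted p = 0.000114). SCHCODRAFT_02640999 went from rank 5 to rank 5104 by RPKM, at 3560, 3250 and 3360 CPM in mycelium and 24.7, 8.72 and 31.5 CPM in primordium (-7.29, SE 1.14, adjusted p = 0.000284). Of its reads, 12.1% had more than 1 placement and are left out of these values, so a near-identical copy may share them. SCHCODRAFT_02606953 and SCHCODRAFT_02626267 fell by 1.35 and 0.77 (SE 0.52 and 0.26; adjusted p = 0.0473 and 0.0263), and their calls ended when any of the mycelium libraries was left out (adjusted p = 0.0840 to 0.100 and 0.0633 to 0.0824). Without primordium replicates 1, 2 and 3 in turn SCHCODRAFT_02626267 was at an adjusted p of 0.0515, 0.0978 and 0.0667, and without replicates 1 and 2 SCHCODRAFT_02606953 was at 0.134 and 0.165. The call of SCHCODRAFT_02606953 also ended without young fruiting body replicate 3 (adjusted p = 0.0585) and fruiting body replicates 2 and 3 (adjusted p = 0.0599 and 0.0573).

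**Figure D4:**
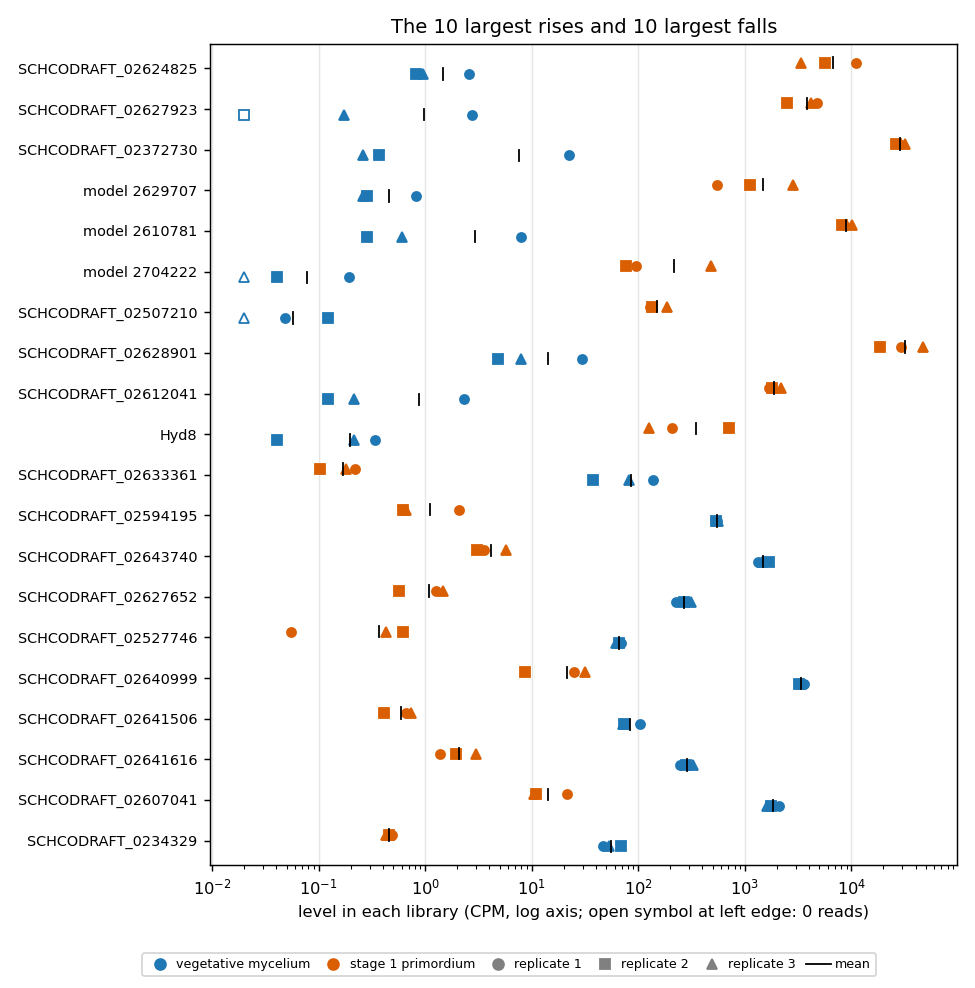
Level in each library (CPM, log axis) of the 10 transcripts with the largest rise, at the top, and the 10 with the largest fall, below, with mycelium in blue, primordium in orange, a symbol per replicate, open symbols for 0 reads and a bar for the mean. Transcripts were chosen for no overlap of the groups and a mean of at least 20 CPM in the higher stage. Mycelium replicate 1 is the highest blue symbol in 9 of the 10 rises.

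Of the hydrophobins with a symbol that could be matched, 5 of 7 rose and none fell, beside 22.5% of all tested transcripts called higher. SC1, SC4, Hyd1, HYD2, Hyd6 and Hyd7 have a symbol in the reference but no matched model, so nothing is known of them here. With Hyd9, which had 0 reads in mycelium, set at its lower bound, their median log2 change was 6.50, with 0.02 over all tested transcripts. In 7 of 7 all primordium libraries lay above all mycelium libraries, beside 36.0% of all tested transcripts. SC6, a hydrophobin of the fruiting dikaryon, was at 0.482, 0.164 and 0.730 CPM in mycelium and at 160, 426 and 112 CPM in primordium. Hyd8 was at 0.337, 0.0409 and 0.215 CPM and at 208, 710 and 127 CPM. Hyd4 was at 1.59, 1.10 and 1.63 CPM and at 21.1, 340 and 32.3 CPM. In all 3 genes primordium replicate 2 was the highest by more than 2 times. The log2 changes were 8.98, 10.77 and 6.50 (SE 1.62, 1.41 and 1.17; adjusted p = 0.000826, 8.21e-05 and 0.000832), and 8.20, 9.72 and 4.21 without that library.

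Hyd3 shared the pattern in an extreme form, at 1.69, 90.9 and 0.243 CPM in primordium, with 3 reads in all of mycelium. Its ratio was 761 (95% exact interval 260 to 3690, counting error only; adjusted p = 0.0115 by edgeR) and 23 without primordium replicate 2 (7.24 to 117; adjusted p = 0.102), so the call rests on that library. Without mycelium replicates 1 to 3 in turn the ratio was 1590, 489 and 753. Hyd9 was highest in primordium replicate 3, at 0.874, 1.95 and 6.73 CPM, and had 0 reads in mycelium. It was at least 69.4-fold higher, taking 3 reads over the mycelium group as the floor (adjusted p = 0.00908), at least 32.6-fold without primordium replicate 3 and at least 44.6-fold to 48.3-fold without a mycelium library.

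The remaining hydrophobins were already present in mycelium. SC3, the hydrophobin that coats aerial hyphae, was at 328, 170 and 192 CPM in mycelium and at 2890, 969 and 852 CPM in primordium (log2 change 2.77, SE 1.16, adjusted p = 0.0717). Hyd5 was at 5.10, 4.38 and 4.64 CPM and at 10.3, 11.5 and 46.8 CPM (2.28, SE 0.87, adjusted p = 0.0506). Neither passed, though the groups did not overlap in either gene. Leaving out replicate 2 of the young fruiting body gave a call for SC3 (adjusted p = 0.00626). Hyd5 was called without primordium replicates 1 and 2 (0.0452 and 0.0470), both stage 2 primordium libraries (0.0492 and 0.0463), young fruiting body replicate 2 (0.0470) or fruiting body replicates 1 to 3 (0.0137, 0.0408 and 0.0418), left out in turn. By RPKM in primordium SC3 led at 2200, followed by SC6 at 417, Hyd8 at 313, Hyd4 at 186, Hyd3 at 90.5, Hyd5 at 39.1 and Hyd9 at 6.37; in mycelium SC3 was at 323, Hyd5 at 8.05, Hyd4 at 2.05 and the others below 1. In each primordium library SC3 was highest and the order SC6, Hyd8, Hyd4 and Hyd3 held per kilobase, while Hyd5 lay above Hyd3 in replicates 1 and 3 and below it in replicate 2. The models of Hyd4 and Hyd5 overlap a neighbouring gene, and SC6 was matched through an older locus tag.

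Among the regulators of fruiting 2 of 6 rose and 1 fell, with a median log2 change of 0.67. These shares are close to the 22.5% and 21.4% of all tested transcripts and are no result about regulators as a group. The zinc finger gene c2h2, which a dikaryon needs to go from aggregates to primordia, was at 27.9, 23.1 and 24.8 CPM in mycelium and at 208, 378 and 181 CPM in primordium (3.34, SE 0.55, adjusted p = 0.000346). Bri1, with an ARID/BRIGHT DNA-binding domain, was at 45.3, 46.2 and 43.4 CPM and at 98.6, 76.7 and 82.8 CPM (0.94, SE 0.25, adjusted p = 0.00832). The gene of the GATA-type zinc finger protein Gat1 fell from 344, 355 and 280 CPM to 75.6, 108 and 122 CPM (-1.68, SE 0.24, adjusted p = 0.000108). These groups do not overlap, and c2h2 moved most. With no scaling factor Bri1 was at 0.62 and not called (adjusted p = 0.0930).

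The other regulators were not called. Fst4, needed for aggregates to form, was at 275, 271 and 234 CPM in mycelium and at 322, 417 and 362 CPM in primordium (0.50, 95% interval -0.11 to 1.10, adjusted p = 0.168). Fst3, a zinc finger gene whose loss gives more and smaller fruiting bodies, was at 242, 248 and 205 CPM and at 356, 348 and 547 CPM (0.85, 0.01 to 1.69, adjusted p = 0.0944). WC1, the blue light receptor gene, was at 73.5, 64.3 and 64.1 CPM and at 77.8, 71.7 and 104 CPM (0.33, -0.20 to 0.85, adjusted p = 0.296). Fst3 was called without fruiting body replicate 1 (adjusted p = 0.0212). WC1 alone had overlapping groups. Its interval leaves out a 2-fold change in either direction, and its value was -0.01 with no scaling factor. By RPKM the regulators ranged in mycelium from 16.5 for Bri1 and 16.7 for c2h2 to 181 for Gat1, and in primordium from 26.5 for WC1 to 169 for c2h2, so that c2h2 went from about the lowest to the highest mean. In primordium replicate 3 alone Fst3 and Fst4 lay above c2h2 per kilobase.

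**Figure D5:**
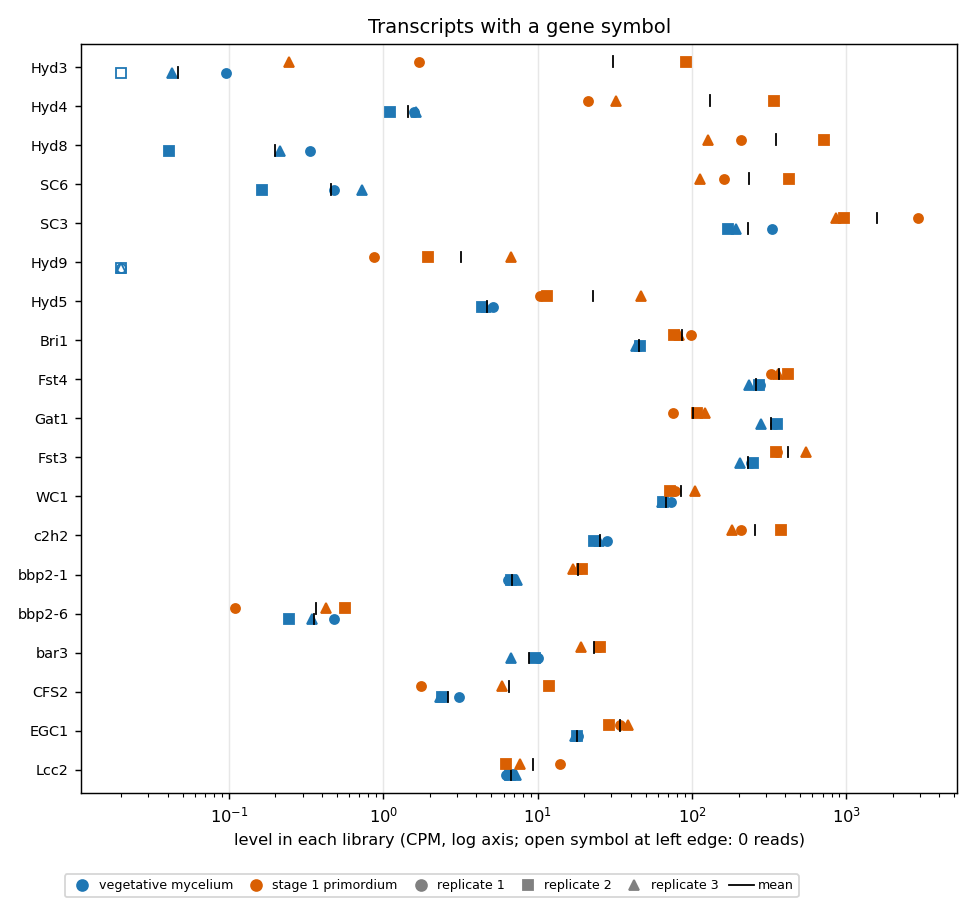
Level in each library (CPM, log axis) of the 19 tested transcripts with a gene symbol, in the order hydrophobins, regulators, mating type genes and others, with mycelium in blue, primordium in orange, a symbol per replicate, open symbols for 0 reads and a bar for the mean. By group mean SC6, Hyd8, Hyd4, Hyd3 and Hyd9 lie furthest apart, though for Hyd3 this rests on primordium replicate 2. The genes c2h2 and Gat1 are separated in opposite directions, and WC1, bbp2-6, CFS2 and Lcc2 overlap.

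Of the mating type B genes bar3, a pheromone receptor gene, was at 10.1, 9.57 and 6.74 CPM in mycelium and at 25.0, 25.2 and 19.0 CPM in primordium (1.39, SE 0.34, adjusted p = 0.00476). The pheromone precursor gene bbp2-1 was at 6.40, 6.67 and 7.39 CPM and at 18.8, 19.3 and 16.9 CPM (1.43, SE 0.23, adjusted p = 0.000267). The precursor gene bbp2-6 was near the limit of counting, at 0.482, 0.245 and 0.344 CPM and 0.109, 0.564 and 0.425 CPM (adjusted p = 0.952), and a further precursor model labelled bbp2 had 1 read in mycelium and 3 in primordium and was not tested.

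The stretch of the reference between the receptor-like genes brl1 and brl3 holds 35 genes, these among them. It was picked by position, in addition to the fixed lists. Of its 19 tested models 5 rose, 4 fell and 10 were not called, with a median log2 change of -0.25. These shares are close to the 22.5% called higher and 21.4% called lower over all tested transcripts. SCHCODRAFT_01238579, which lies in this stretch, was at 2.22, 1.72 and 1.59 CPM in mycelium and at 9.18, 7.23 and 6.67 CPM in primordium (2.06, SE 0.31, adjusted p = 0.000154). SCHCODRAFT_02638232 was at 4.38, 4.34 and 4.38 CPM and at 16.8, 15.2 and 12.7 CPM (1.77, SE 0.27, adjusted p = 0.000168), while SCHCODRAFT_01238661 was at 9.05, 9.90 and 7.95 CPM and at 1.26, 1.23 and 0.546 CPM (-3.13, SE 0.83, adjusted p = 0.00868). Of the other falls of this stretch, SCHCODRAFT_02638182 was not called without primordium replicate 2 (adjusted p = 0.0647), and SCHCODRAFT_01216023 was not called without any of the 3 mycelium replicates (0.0865, 0.136 and 0.0565) or primordium replicates 1 and 2 (0.147 and 0.0641). A transcript not called in the stretch, SCHCODRAFT_02638251, was called without young fruiting body replicate 1 or 2 (0.0406 and 0.00842). The spans of bar3 and SCHCODRAFT_02638232 each overlap a neighbouring gene.

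EGC1 was at 18.3, 17.9 and 17.5 CPM in mycelium and at 34.1, 28.9 and 38.6 CPM in primordium (0.92, SE 0.25, adjusted p = 0.00872), and with no scaling factor it was at 0.59 and not called (adjusted p = 0.165). CFS2 was at 3.08, 2.41 and 2.32 CPM and at 1.75, 11.8 and 5.88 CPM (1.32, SE 0.57, adjusted p = 0.0752). Lcc2, a laccase gene, was at 6.26, 6.58 and 7.26 CPM and at 14.0, 6.20 and 7.70 CPM (0.47, SE 0.52, adjusted p = 0.483). In both of the last the groups overlap. CFS2 was called without primordium replicate 1 (adjusted p = 0.00759).

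Large changes fell on neighbouring genes more often than the share over all genes. Neighbours were taken from the order of genes in the reference, in 25 runs of rising start positions, since the reference names no chromosomes. Of 960 transcripts at least 4-fold higher with a tested next gene, 187, or 19.5%, had a next gene at least 4-fold higher too, while 7.34% of all next genes were. Of 839 at least 4-fold lower, 173, or 20.6%, had a next gene at least 4-fold lower, against 6.43% of all next genes. Leaving out pairs with overlapping spans or with over 5% of reads placed more than once, the shares were 18.4% against 7.32% and 19.1% against 6.38%. These shares are a description with no test, and the cause was not tested.

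Such rises formed 144 groups of 2 to 7 adjacent genes and falls 126 groups of 2 to 6. The longest group of rises holds 7 genes of low abundance. SCHCODRAFT_02124955 of this group was at 2.50, 2.86 and 2.19 CPM in mycelium and at 34.4, 47.0 and 13.2 CPM in primordium (3.64, SE 0.67, adjusted p = 0.000865), with 14.4% of its reads placed more than once. SCHCODRAFT_02593747 was at 0.578, 0.409 and 0.344 CPM and at 13.7, 20.5 and 9.16 CPM (5.01, SE 0.69, adjusted p = 8.14e-05). In primordium replicate 2 all 7 genes were at their highest level. The longest group of falls holds 6 genes, of which SCHCODRAFT_02516760 was not called without primordium replicate 2 (adjusted p = 0.0520). The most abundant of them, SCHCODRAFT_02640726, went from 642, 607 and 660 CPM to 17.6, 6.72 and 2.67 CPM (-6.14, SE 0.61, adjusted p = 6.90e-06, and -7.08 without primordium replicate 1). Of its reads 19.6% were placed more than once. The spans of 4 of these 6 falls and 2 of the 7 rises overlap a neighbouring gene.

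For most of the strongly changed transcripts the level stayed on the same side of the mycelium in later stages. All 8 libraries of the later stages (stage 2 primordium, then young and full-grown fruiting bodies) lay above the highest mycelium library for 802 of the 1043 transcripts at least 4-fold higher, beside 17.6% of all tested transcripts. They lay below the lowest mycelium library for 666 of the 934 at least 4-fold lower, beside 15.2% of all. These later libraries share the mycelium libraries as their reference with the comparison itself, and share their flow cell with the stage 1 primordium. All of the 10 largest rises and 10 largest falls stayed on the same side in this way, though no margin was asked for. SCHCODRAFT_02372730 was at 17800 ± 12700 CPM (SD, n = 2) in stage 2 primordium, 13700 ± 14200 CPM (n = 3) in young fruiting body and 14100 ± 7470 CPM (n = 3) in fruiting body. SCHCODRAFT_02624825, at 6680 ± 3950 CPM in stage 1 primordium, was at 10.4 ± 10.8 CPM in stage 2 primordium and at 734 ± 695 CPM in fruiting body. Its lower stage 2 library, at 2.74 CPM, lay barely above the highest mycelium library, at 2.60 CPM. SCHCODRAFT_02594195 was at 0.432 ± 0.447, 0.728 ± 0.0371 and 1.12 ± 0.0702 CPM in those later stages.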

How the data were processed

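Libraries were made from poly(A) RNA with an unstranded TruSeq kit, per the labels' protocols. The authors deposited raw counts per transcript model of the Schco3 assembly for each library, as unique and total gene reads. The submitters' processing notes list R 3.0.2, limma 3.18.13 and edgeR 3.4.2 with no role. For the aligner and counting rules, nothing is given in the sources used here. Unique reads of all 14 libraries were fitted in R 4.3.3 with edgeR 4.0.16 (filterByExpr, TMM, robust quasi-likelihood fit of stage; two-sided test). DESeq2 1.42.0 and limma 3.58.1 served as alternatives. The fit was tested on simulated data. The SE is the change over the square root of F. Of the models 16024 were matched to locus tags of the reference (Schco3), 14009 of them after a constant shift of the number found from the files, and 20 carry a symbol. Named were the 10 largest rises and falls with no overlap of the groups and at least 20 CPM in the higher stage, the 5 most abundant by RPKM called in each direction, and all genes with a symbol. The members and lists were chosen with earlier results of these data known. Lists by protein and promoter sequence were planned and were not used here. Replicates differed by more than sampling noise.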

Additional observations from a re-analysis of the deposited data

How the results depend on the processing

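Over 23 alternatives, none of the 1668 values of 73 named transcripts reversed a called direction. Of these values 1608 kept their side of the threshold, 28 calls were lost and 32 gained. The largest rises and falls were chosen for groups that do not overlap, so a kept direction adds no support for these. With no scaling factor 1929 transcripts were called higher, 32.1% of the calls in place of 51.3%, as the median of all transcripts moved from 0.02 to -0.30. Voom with quality weights called 9702 transcripts, 4873 higher and 4829 lower. The mean share of mycelium reads in transcripts at least 4-fold lower, 13.7% in the fit as reported, was 17.9% with no scaling factor, 13.5% with no filter on low counts, 14.2% with at least 50 reads in 3 libraries or the 2 stages alone, 13.4% with DESeq2, 14.3% with voom and 13.9% with a replicate block, and ran from 12.2% to 14.0% on leaving out a library. With at least 50 reads in 3 libraries, 17.8% of transcripts at least 4-fold lower had such a next gene. Leaving out a library gave 4875 to 6917 calls. A replicate block gave 5967 calls, of which 5898 were among the 6286, and ended the calls of SCHCODRAFT_02606953 (adjusted p = 0.0521) and SCHCODRAFT_01216023 (0.0503). Deviations of equally numbered libraries correlated at -0.178, 0.072 and -0.087, and those of unequally numbered ones at -0.124 to 0.177. No pairing by number is seen in these values, but 3 libraries per stage are too few to exclude it. Under DESeq2, calls were gained for CFS2 (adjusted p = 0.0337) and SC3 (0.0325) and lost for Hyd9 (0.109). SC3, Hyd5, Fst3 and Fst4 were called on the 2 stages alone (0.00828, 0.0271, 0.00775 and 0.0129) and with voom (0.00758, 0.00423, 0.00254 and 0.0109). The 2 stages alone, fitted without the later libraries and their spread, gave 8961 calls among 13757 tested. The cause was not tested. Below 1 CPM, depth limits what can be called.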

Other observations

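Transcripts that changed strongly in either direction were somewhat shorter than the rest. The median transcript length was 1219 bases for those at least 4-fold higher and 1110 bases for those at least 4-fold lower, with 1317 bases over all tested transcripts. Models under 600 bases made up 15.0% and 17.7% of these groups and 12.5% of all tested transcripts. These are descriptions, and the cause was not tested.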
